A study of Ovis aries with 3 samples.

Results

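FABP1 and 4 further transcripts of the PPAR signaling pathway were followed through 3 regions of the sheep gut, exon by exon. The members were fixed by transcript identifier, and every exon row whose name began with 1 of the 5 identifiers was taken. All 5 transcripts were present, with 48 of the 903107 exon rows and among 83089 transcripts with reads. A reference table of sheep genes (assembly ARS-UI_Ramb_v3.0, used for names only) paired XM_004005898.2 with FABP1, XM_004009588.2 with FABP2 and XM_004014441.2 with PCK1. XM_012095247.1 is called ILK here because its locus holds transcripts that the table pairs with ILK, each sharing 11 of its 13 exons. No symbol was found for XM_012176587.1 or for the 8 transcripts that share its exons. The study's pathway lists place it under PPAR signaling, fat digestion and absorption, ECM-receptor interaction, hematopoietic cell lineage and malaria.

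The RNA came from mucosal epithelial tissue of the duodenum, the cecum and the proximal colon of 3 healthy small-tailed Han ewes aged 11 months, which the study kept under the same conditions. They form 3 groups by region, with no treatment. RNA was pooled by region into 1 library each, so the spread between animals cannot be seen. A difference between regions is a difference between 3 libraries with no replicate check, and each interval below covers read sampling only. The read totals that scale the values were 50832279, 46311533 and 53827214 for duodenum, cecum and colon.

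Peroxisome proliferator-activated receptors (PPARs) are nuclear receptors that bind fatty acids and their derivatives. Together with retinoid X receptors they regulate genes for the uptake, binding and oxidation of fatty acids, for lipoproteins and for gluconeogenesis. In the gut, the small intestine takes up dietary fat, and enterocytes there hold large amounts of fatty acid binding proteins, small carriers that move fatty acids through the cytosol. FABP1 is the liver type and FABP2 the intestinal type of these carriers. PCK1 is the cytosolic phosphoenolpyruvate carboxykinase, an enzyme of gluconeogenesis and glyceroneogenesis. ILK is integrin-linked kinase, a scaffold protein of the contacts between integrins and the actin cytoskeleton.

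The labels of the regions were checked against marker genes. APOA4, an apolipoprotein of small intestinal enterocytes, had 308 RPKM (reads of the exons scaled by their length and by the library's read total) in the duodenum, against 0.197 in the cecum and 0.272 in the colon. SLC26A3, a chloride exchanger of the large intestine, had 7.80, 49.5 and 53.7 RPKM in the same order. EPCAM, an epithelial surface protein, had 582, 550 and 596 RPKM. Of the other two epithelial markers with a matched transcript, KRT8 had 823, 1636 and 1196 RPKM, with the same order of regions as ILK, and KRT20 had 421, 449 and 257. None of the 3 differed by a fold of 2 or more between the duodenum and another region. The symbols APOA4, KRT8, KRT20, DES, CNN1 and TAGLN were taken from transcripts with a shared exon. Smooth muscle markers moved with the regions: the 5 of 6 markers with a matched transcript (ACTA2, DES, CNN1, ACTG2 and TAGLN) summed to 1062, 5223 and 3669 RPKM in duodenum, cecum and colon. None of these 5 was at 0 in any library.

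**Figure D1:**
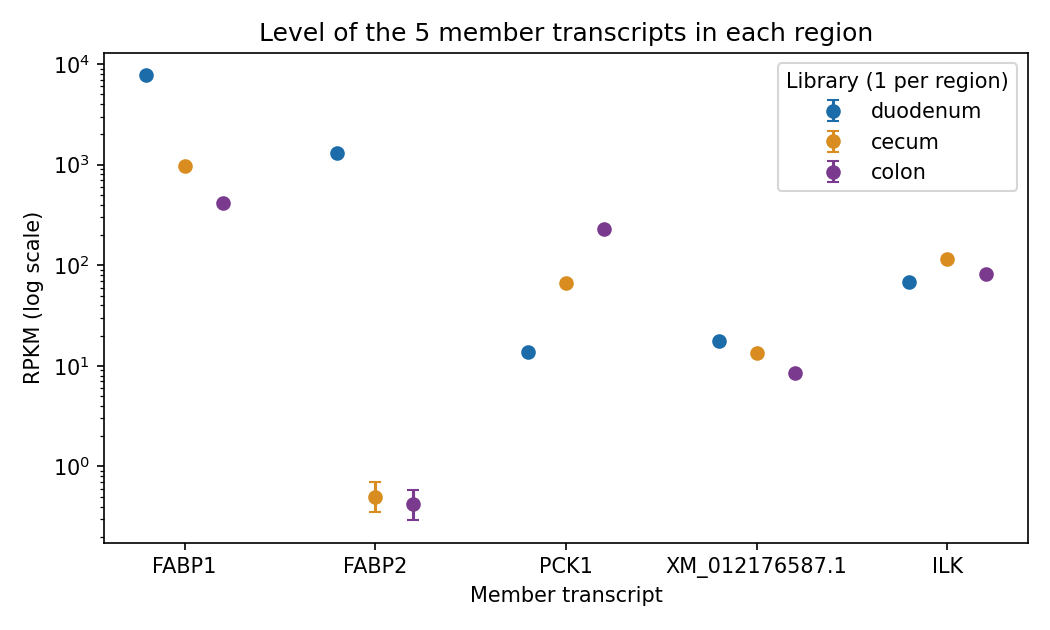
RPKM (log axis) of the 5 member transcripts in the duodenum, cecum and colon, 1 pooled library per region, with bars for the 95% interval from read sampling, which are smaller than the point for most values. FABP1 and FABP2 were highest in the duodenum, PCK1 was highest in the colon, and ILK was highest in the cecum.

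FABP1 was the most abundant of the 5 in every region and fell stepwise along the gut in these libraries. Its level was 7692 RPKM in duodenum (95% interval 7660 to 7724), 967 in cecum (955 to 979) and 414 in colon (406 to 421). It ranked at position 2 of 28601 loci (groups of transcripts joined by shared exons) in the duodenum, against position 77 in cecum and 179 in colon. The reads behind these values numbered 218575, 25028 and 12443, in the same order. Cecum over duodenum gave a log2 ratio of -2.99 (95% interval -3.01 to -2.97), and colon over duodenum gave -4.22 (-4.24 to -4.19). The cecum exceeded the colon by a log2 ratio of 1.23 (1.19 to 1.26), or 2.34-fold. The study's quantitative real-time PCR of FABP1 also had the duodenum highest, but its means for cecum and colon were nearly equal. The step from cecum to colon thus rests on the sequencing alone. FABP1 passed the threshold in all 3 comparisons. A transcript was called when its fold was at least 2 and its false discovery rate was below 0.001 in the Audic-Claverie test, with Benjamini-Hochberg adjustment over 58311 transcripts of at least 1 RPKM in a region. In tissue RNA, fewer cells of a type and less RNA per cell cannot be told apart.

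The 4 exons of FABP1 gave nearly the same ratios. The files place them between positions 58685468 and 58691230, without naming a chromosome or a build, and number them by position. Exon 2 was the highest in each region, with 11151, 1407 and 606 RPKM in duodenum, cecum and colon. Exon 1 was the lowest, with 4408, 583 and 235 RPKM. Over the 4 exons the log2 ratio ran from -3.03 to -2.92 for cecum over duodenum, and from -4.24 to -4.19 for colon over duodenum. All 4 exons were covered over 100% of their length in every region. The share of FABP1 reads on each exon hardly moved, as with exon 3, which took 41.2%, 41.1% and 40.7%. Exons 2 and 4 are listed with these boundaries for this transcript alone. Exons 1 and 3 are also listed for XM_012111044.1, which had 7673, 964 and 411 RPKM.

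FABP2 showed the steepest fall among the 5 members and was almost restricted to the duodenum. It had 1313 RPKM in duodenum (1305 to 1321), 0.503 in cecum (0.351 to 0.701) and 0.427 in colon (0.292 to 0.588). The duodenal value rests on 100130 reads, and those of cecum and colon rest on 34.9 and 34.5, above the floor of 3 reads. The log2 ratio was -11.35 (-11.87 to -10.87) for cecum over duodenum and -11.59 (-12.14 to -11.12) for colon over duodenum. With 1 added to every RPKM these ratios were -9.77 and -9.85. Between cecum and colon the log2 ratio was 0.24 (-0.46 to 0.98), an interval that includes both directions, and no difference was detectable at this depth. In RPKM, FABP1 exceeded FABP2 by 5.86 times in duodenum, 1923 times in cecum and 968 times in colon. Both carriers had their highest level in the same library, but only FABP1 kept a high level in the large intestine.

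FABP2, with 4 exons between positions 6154473 and 6158491, had uneven exons. Exon 1, the longest at 782 bases, is the only exon not listed with the same boundaries for another transcript. It had 360 RPKM in the duodenum over 48.47% of its length. The other exons there had between 1207 and 5146 RPKM over their full length. In the cecum exon 1 had 0 reads, which allows up to 0.0828 RPKM at 3 reads in the library, so its level was at least 4351-fold higher in the duodenum. In the colon it had 5.98 reads. The other 3 exons, shared with XM_012155961.1, had between 0.664 and 2.87 RPKM in the cecum and between 0.635 and 1.04 in the colon. XM_012155961.1 had the same reads in total in each region, so its remaining exon, with other boundaries, held the same reads as exon 1. Exon 1 thus does not set the 2 transcripts apart.

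PCK1 ran in the opposite direction to the carriers. Its level was 13.8 RPKM in duodenum (13.2 to 14.4), 66.2 in cecum (64.8 to 67.7) and 231 in colon (229 to 234). The log2 ratio was 2.27 (2.19 to 2.34) for cecum over duodenum and 4.07 (4.003 to 4.138) for colon over duodenum, a 16.8-fold difference. The colon exceeded the cecum 3.49-fold, a log2 ratio of cecum over colon of -1.80 (-1.84 to -1.77). PCK1 passed the threshold in all 3 comparisons, and its reads numbered 1862, 8158 and 33124 in duodenum, cecum and colon. In the duodenum it was the lowest of the 5 members, and in the colon it stood second only to FABP1. The quotient of FABP1 over PCK1 in RPKM went from 559 through 14.6 to 1.79.

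The 12 exons of PCK1, between positions 57899472 and 57905669 and all listed for this transcript only, had the same order of regions without exception. Their log2 ratios ran from 1.98 to 2.69 for cecum over duodenum and from 3.86 to 4.34 for colon over duodenum. Between cecum and colon they ran from -1.98 to -1.61. Exon 3 was the highest in each region, with 26.5, 141.7 and 509.8 RPKM in duodenum, cecum and colon. Exon 7 was the lowest in each region, with 4.28, 27.7 and 86.9 RPKM, and in the colon only 45.45% of its 110 bases were covered. The order of the regions was thus the same along the whole transcript.

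**Figure D2:**
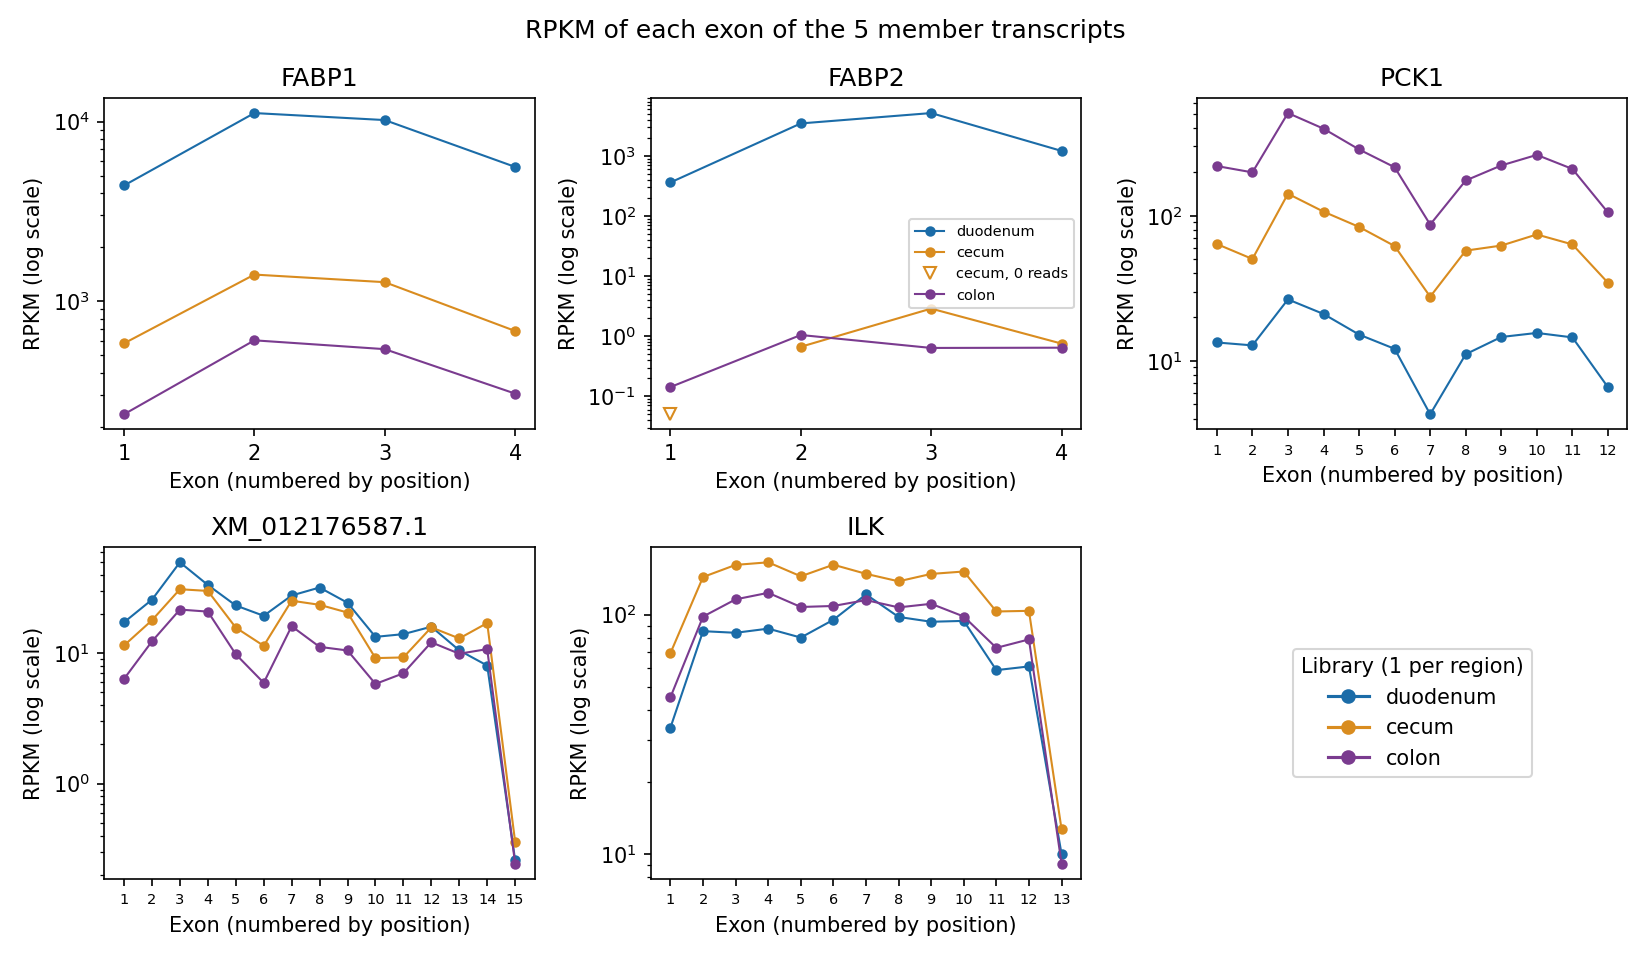
RPKM (log axis) of each exon of the 5 member transcripts, numbered by position, in the duodenum, cecum and colon (1 library each), with an open triangle where an exon had 0 reads. The 3 lines of FABP1 and of PCK1 run in parallel, whereas those of XM_012176587.1 change their order from exon 13 on, with the cecum highest, and exon 15 of that transcript lies below 1 RPKM in every region.

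XM_012176587.1 was expressed at a low level and declined along the gut. It had 17.7 RPKM in duodenum (17.0 to 18.5), 13.5 in cecum (12.9 to 14.2) and 8.46 in colon (7.99 to 8.94). The log2 ratio of colon over duodenum was -1.07 (-1.17 to -0.97), a 2.1-fold difference that passed the threshold by a narrow margin. With 1 added to every RPKM the ratio was -0.99, and with the median exon it was -0.88, and it was then not called. Cecum over duodenum gave -0.40 (-0.49 to -0.30) and cecum over colon 0.67 (0.57 to 0.78), both short of a fold of 2. Of its 15 exons, between positions 40397635 and 40495120, 14 are also listed for each of 8 further transcripts, so most of its reads also count for those transcripts. Exon 15, listed with these boundaries for this transcript only, had 2, 2.52 and 2 reads in duodenum, cecum and colon, all under the floor of 3 reads. One of the 8 transcripts, XM_012168718.1, had the same log2 ratios of -0.40, -1.07 and 0.67 to every digit. Exon 15 thus does not set XM_012176587.1 apart from it.

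The ratio of XM_012176587.1 depended on which of its exons were read. Exons 1 to 11 gave 20.3, 14.2 and 8.53 RPKM in duodenum, cecum and colon, with a log2 ratio of colon over duodenum of -1.25 (-1.36 to -1.14). Exons 12 to 14 gave 11.9, 14.7 and 10.8 RPKM, with a ratio of -0.14 (-0.39 to 0.11). Their share of the reads of the transcript was 11.5%, 18.7% and 21.9%. Exon 14 was higher in the cecum than in the duodenum, at 17.0 against 8.03 RPKM and a log2 ratio of 1.08 (0.50 to 1.71), from 71.7 and 37.1 reads. Exon 6 lay at the other extreme, with 19.3, 11.4 and 5.92 RPKM and a log2 ratio of colon over duodenum of -1.71 (-2.16 to -1.29). These groups of exons were chosen after their values were seen, and the contrast between them was not tested.

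ILK differed least between the duodenum and the colon. It had 67.4 RPKM in duodenum (65.7 to 69.1), 115 in cecum (112 to 117) and 81.8 in colon (80.0 to 83.6). The log2 ratios were 0.77 (0.72 to 0.81) for cecum over duodenum, 0.28 (0.23 to 0.33) for colon over duodenum and 0.49 (0.44 to 0.53) for cecum over colon. None reached a fold of 2, and ILK was not called in any comparison, although every interval lay above 0. The smooth muscle markers given above had the same order of regions, with the lowest sum in the duodenum and the highest in the cecum, and their part in the values of ILK was not tested.

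The 13 exons of ILK, between positions 45861870 and 45869005, did not all keep the same ratio. Exon 1 had 33.7 RPKM in the duodenum and 69.0 in the cecum, a log2 ratio of 1.03 (0.90 to 1.17). Exon 7 had 121 and 148 RPKM, a ratio of 0.29 (0.11 to 0.46). For colon over duodenum the exon ratios ran from -0.13 to 0.50, with 11 of 13 above 0. The lowest belonged to exon 13, the exon listed for this transcript only, with 10.02, 12.7 and 9.14 RPKM in duodenum, cecum and colon, below the median exon at 85.3, 145 and 107 RPKM. That exon held 1.10%, 0.819% and 0.826% of the reads of the transcript, and the other reads fell on exons listed for further ILK transcripts as well.

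**Figure D3:**
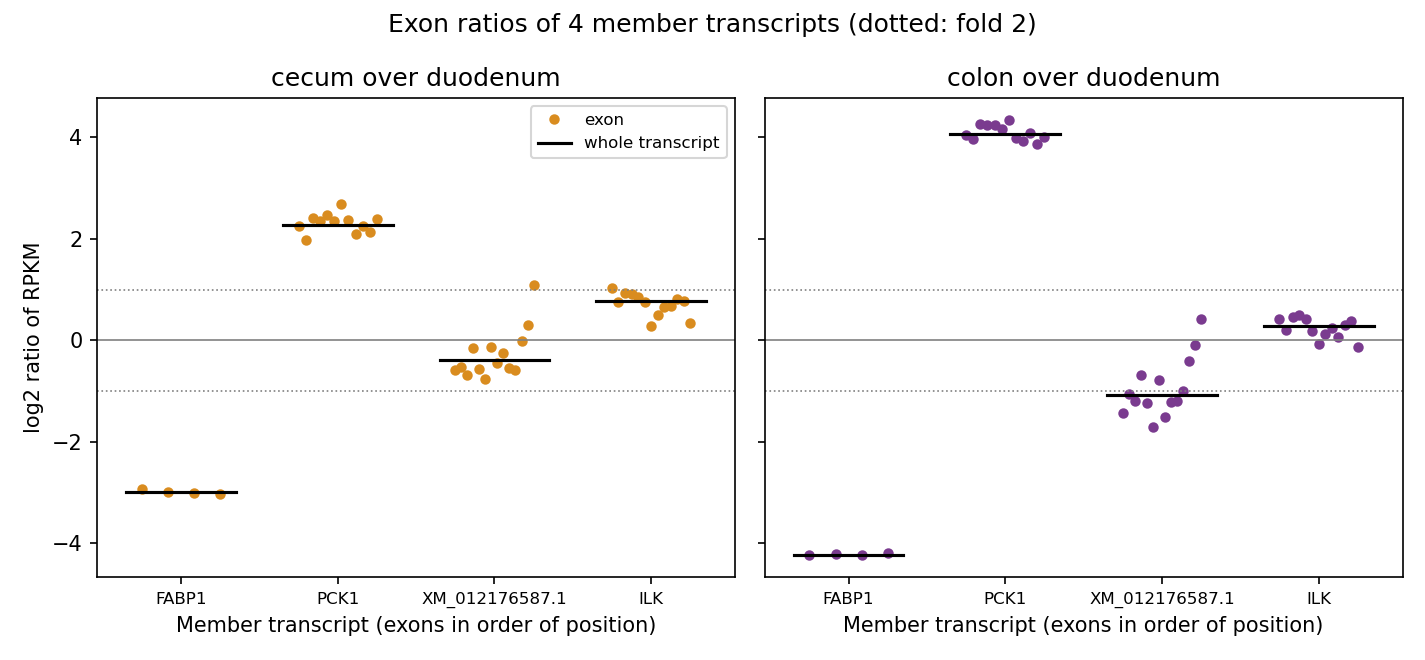
Log2 ratio of RPKM over the duodenum for each exon with at least 1 RPKM in a compared region (points, in order of position) and for the whole transcript (black line), for the cecum and the colon, with dotted lines at a fold of 2. FABP2 is left out because its ratios lie below -10. The exons of FABP1 and PCK1 stay close to the line of their transcript, and the last exons of XM_012176587.1 lie above theirs.

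Between cecum and duodenum, 3 of the 5 members were called, PCK1 in favour of the cecum with FABP1 and FABP2 in favour of the duodenum. Over all 58311 transcripts tested, 17.7% were called in that comparison, 11.5% with the cecum higher and 6.23% with the duodenum higher. Colon against duodenum gave 4 called members, PCK1 with the colon higher and FABP1, FABP2 and XM_012176587.1 with the duodenum higher. The share of all transcripts was 16.2% there, 9.35% with the colon higher and 6.88% with the duodenum higher. Cecum against colon gave 2 called members, FABP1 with the cecum higher and PCK1 with the colon higher, where 5.7% of all transcripts were called, 2.83% and 2.87% in these directions. The members came from lists that the study had drawn up from differences seen in these libraries and in libraries of Texel sheep, which are not analysed here, so their counts are no independent evidence that the pathway differs. Every library enters a pair of the 3 comparisons. With edgeR's exact test and a biological coefficient of variation assumed at 0.4, for lack of replicates, the calls left were FABP2 in cecum against duodenum, FABP1, FABP2 and PCK1 in colon against duodenum, and 0 in cecum against colon. The share of all transcripts called by that test is not given here.

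The wider pathway was described with a list of 71 PPAR pathway genes, of which 33 had a transcript in the files with a matched symbol and 29 passed 1 RPKM in a region. Each gene was represented by its transcript with the highest RPKM. Of the genes named next, RXRG, NR1H3, ACSBG1, HMGCS1, APOA1, GK, AQP7 and CIDEC, and the FABP2 transcript used for this list (XM_012155961.1), took their symbol from a transcript with a shared exon, which is less certain than a match of the accession. Between cecum and duodenum 19 of the 29 were called (65.5%), 10 with the cecum higher and 9 with the duodenum higher, where 17.9% of 5888 named genes were called, 11.3% and 6.56% in these directions. Colon against duodenum gave 16 called genes (55.2%), 8 in each direction, where 16.6% of named genes were called, 8.9% with the colon higher and 7.71% with the duodenum higher. Cecum against colon gave 4 called genes (13.8%), 2 in each direction, where 6.17% of named genes were called, 3.55% with the cecum higher and 2.62% with the colon higher. The median log2 ratio of the 29 genes was 0.01 for cecum over duodenum and -0.02 for colon over duodenum, beside 0.06 and -0.06 over all named genes. The pathway genes thus went both ways, with 8 called higher in both large intestinal regions, 8 called lower in both, and 10 called in neither comparison with the duodenum. Without FABP1, FABP2, PCK1 and ILK, 25 genes were left, of which 16 were called between cecum and duodenum (9 for the cecum) and 13 between colon and duodenum (7 for the colon). With edgeR's exact test at the assumed variation, 0 of the pathway genes were called for the cecum and 3 for the duodenum, 1 for the colon and 4 for the duodenum, and 0 in cecum against colon. The share of all named genes called by that test is not given here, so these counts cannot be set against it.

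Among the receptors, PPARG, which drives fat cell differentiation, had 15.96, 29.5 and 26.2 RPKM in duodenum, cecum and colon. Its log2 ratios of 0.89 (0.78 to 0.99) and 0.72 (0.61 to 0.82) over the duodenum stayed below a fold of 2. NR1H3, the oxysterol receptor LXR alpha, had 32.2, 21.1 and 26.2 RPKM and was not called. RXRG, a retinoid X receptor, was called higher in both large intestinal regions but was low, with 0.460, 2.79 and 3.24 RPKM. PPARA, PPARD, RXRA and RXRB had no matched transcript and were not analysed here.

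Among fatty acid binding proteins the direction differed by gene. FABP3, the heart type, had 71.3, 239 and 154 RPKM, with log2 ratios of 1.74 (1.68 to 1.81) for cecum and 1.11 (1.04 to 1.17) for colon, both over duodenum. DBI, which binds acyl-CoA, went with FABP1 and FABP2, with 992, 238 and 250 RPKM and log2 ratios of -2.06 (-2.10 to -2.02) and -1.99 (-2.02 to -1.95). The 7 matched genes for binding and uptake summed to 10385, 1583 and 926 RPKM, with FABP1 as the largest part in duodenum, cecum and colon. Between cecum and duodenum 3 of the 7 were called for each side, where 11.3% of named genes were called for the cecum and 6.56% for the duodenum. Between colon and duodenum 2 were called for the colon and 3 for the duodenum, where the shares of named genes were 8.9% and 7.71%.

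The genes of fatty acid oxidation were also split. CPT1A, which lets long-chain fatty acids enter mitochondria, had 32.2, 73.7 and 76.6 RPKM, with log2 ratios to the duodenum of 1.19 (1.14 to 1.25) and 1.25 (1.20 to 1.30). CPT2, which acts after CPT1A at the inner mitochondrial membrane, had 28.0, 28.1 and 23.3 RPKM and was not called. ACAA1, a thiolase of peroxisomal oxidation, was higher in the duodenum, at 245 RPKM against 57.5 and 65.0. HMGCS1, an enzyme of cholesterol synthesis, had 63.0, 55.8 and 39.8 RPKM and was not called.

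Lipoprotein genes, with FABP2, gave the largest differences on the list. APOC3, an apolipoprotein of triglyceride-rich particles, had 286 RPKM in the duodenum and 0.164 in the colon, from 5 reads, a log2 ratio of -10.77 (-12.40 to -9.55). In the cecum it had 0 reads, which allows up to 0.114 RPKM, so its level was at least 2510-fold higher in the duodenum. APOA1, the main protein of high-density lipoprotein, had 229, 2.92 and 2.55 RPKM and was called in both comparisons with the duodenum. LPL, the lipase that releases fatty acids from lipoproteins, was called higher in cecum and colon at a low level, with 3.41, 8.32 and 8.02 RPKM and log2 ratios of 1.29 (1.08 to 1.49) and 1.23 (1.03 to 1.44).

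**Figure D4:**
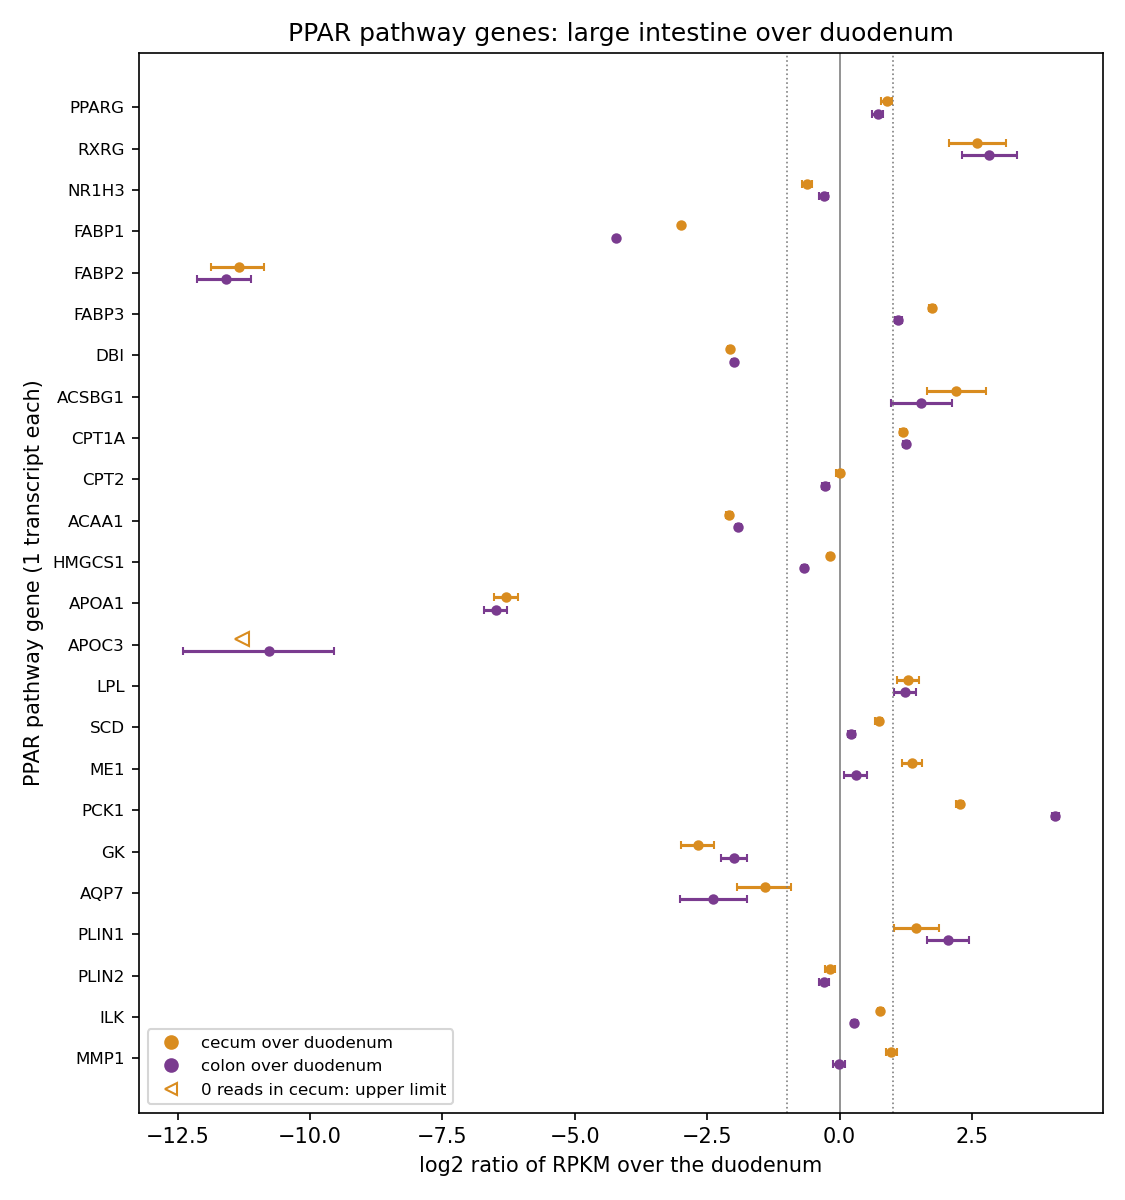
Log2 ratio of RPKM over the duodenum for 24 PPAR pathway genes, up to 4 per role with the highest RPKM and 1 transcript each, in the cecum and the colon, with 95% intervals from read sampling, dotted lines at a fold of 2 and an open triangle for the limit set by 0 reads. FABP2, APOA1 and APOC3 lie furthest below 0 and PCK1 in the colon furthest above it, at 4.07.

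Of the 3 tested genes of the gluconeogenesis and glycerol group, PCK1 was called higher in cecum and colon than in the duodenum, and GK and AQP7 lower. Of all named genes, 11.3% were called higher in the cecum than in the duodenum and 6.56% lower. For the colon against the duodenum these shares were 8.9% and 7.71%. GK, which phosphorylates glycerol, had 4.85, 0.760 and 1.22 RPKM in duodenum, cecum and colon. AQP7, a glycerol channel, had 2.34, 0.882 and 0.447 RPKM. PCK2 had no matched transcript and was not analysed here.

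Of the genes of lipid synthesis and storage, some were called and some were not. SCD, a fatty acid desaturase, had 32.8, 54.6 and 38.3 RPKM and was not called. ME1, which supplies NADPH for lipid synthesis, was called higher in the cecum than in the duodenum and the colon, with 2.001, 5.16 and 2.47 RPKM. ACSBG1, an acyl-CoA synthetase, was called higher in both large intestinal regions at no more than 1.40 RPKM. PLIN2, a coat protein of lipid droplets, was not called, with 23.4, 20.6 and 19.02 RPKM. PLIN1, the lipid droplet coat of adipocytes, was called higher in cecum and colon with 0.916, 2.49 and 3.76 RPKM. MMP1, a collagenase, had 11.3, 22.2 and 11.2 RPKM and was not called. The other 4 matched genes, ACSL6, OLR1, PLIN5 and UCP1, stayed below 1 RPKM in every region.

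LPL and PLIN1 are also on the list of adipocyte markers. Of the other matched markers on it, FABP4 moved with them and CIDEC did not. The 4 of 6 adipocyte markers with a matched transcript (PLIN1, CIDEC, FABP4 and LPL) summed to 13.4, 30.9 and 40.8 RPKM, a sum that includes LPL and PLIN1 themselves. FABP4 was called higher in cecum and colon, with 5.70, 17.8 and 25.9 RPKM, and CIDEC was not called, with 3.41, 2.27 and 3.11. None was at 0 in any library. The defining markers ADIPOQ and LEP had no matched transcript and were not analysed here. The part of adipocytes in the values of LPL and PLIN1 was not tested.

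The study's own lists for the pathway, one of them shortened in the text used here, gave 35 readable identifiers, and 23 of these were in the files. The 23 include the 5 members, and they hold further transcripts of the same genes, such as 2 that share 14 exons with XM_012176587.1. In cecum against duodenum 16 were called, 6 with the cecum higher and 10 with the duodenum higher, where 17.7% of all transcripts were called. Colon against duodenum gave 19, 6 with the colon higher and 13 with the duodenum higher, where 16.2% of all transcripts were called. The median log2 ratio was -1.07 beside -0.00033 over all transcripts. That median is the value of XM_012176587.1 itself. The 2 transcripts that share its exons were called in the same direction, so this locus enters the count repeatedly. In cecum against colon 3 were called, 1 with the cecum higher and 2 with the colon higher, where 5.7% of all transcripts were called. The study chose these lists on these samples together with the Texel libraries, so the counts describe the lists and are not independent evidence of a direction.

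The transcripts closest to FABP1 in their pattern over the 3 regions came from 3 loci. Likeness was the distance between the pairs of log2 ratios over the duodenum, among 2005 transcripts of other loci with at least 100 RPKM there. TM4SF5, a membrane protein of the transmembrane 4 L6 family, was closest at a distance of 0.51, with 205, 18.3 and 9.98 RPKM in duodenum, cecum and colon. LOC101105208 followed at 0.60 with 314, 44.8 and 25.1 RPKM, and LOC101113715 at 0.86 with 2143, 432 and 166 RPKM. The first 2 of these loci each took a pair of the 5 nearest places. With 3 regions, each pattern is only 2 ratios, and the order is a description.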

How the data were processed

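For each exon of a transcript, the authors mapped the reads and deposited an estimated count, 87.8% to 88.3% of which are not whole, the exon length, the percent of it covered and the RPKM. The authors' RPKM equals the count divided by exon length and by the read total in the file header. The study's methods name Bowtie2, RSEM and the sheep genome v4.0, and the submitters' processing notes name BWA and Bowtie 0.12.2. The files name no build or chromosome. Exons with less than 1 read are absent and were set to 0.

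Members and gene lists were chosen with earlier results of these data known. Counts of a transcript's exons were summed and rounded, RPKM was recomputed with the summed length of exons with reads in any region, and pairs of libraries were compared with the Audic-Claverie test of the methods, which was tested on simulated data. In ratios 0 RPKM was replaced by 0.001. Intervals are exact 95% Clopper-Pearson intervals (Poisson for RPKM) and cover counting error only. A floor of 3 reads is 5.90e-06%, 6.48e-06% and 5.57e-06% of the read totals of duodenum, cecum and colon. Reads summed over distinct exons came to 1.35, 1.39 and 1.39 times those totals, so a read can count on more than 1 exon. Where exons of the same transcript share reads, the intervals are too narrow and the false discovery rates too low. The simulated data held Poisson counts without such sharing. Of 83089 transcripts, 8735 matched the gene table by accession without its version, and 18447 more took the single symbol of their locus, which is less certain. Of the listed pathway genes, up to 4 per role with the highest RPKM were named, and the 5 transcripts most like FABP1. No column of another sample was present, and 0 were left out. The alternatives tried are given in the closing section. Python 3.11.15, numpy 2.4.6, pandas 2.3.3, scipy 1.17.1, matplotlib 3.10.9, R 4.3.3 and edgeR 4.0.16 were used.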

Additional observations from a re-analysis of the deposited data

How the results depend on the processing

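No paired analysis was possible because each region is 1 library with no replicate, and for the same reason no replicate could be left out. Every call is a comparison of libraries, and the variation between ewes is not in it. The shares of all transcripts called under the alternatives are not given here. A lower count below therefore cannot be told from a general drop in calls. Of 162 member ratios under the alternatives, 150 kept their direction and their side of the threshold. A change of the RPKM filter, of the fold or of the test leaves the ratio itself unchanged. Under those settings the direction was fixed in advance, and only the call could change. Over the alternatives FABP1 stayed between -3.04 and -2.99 on the log2 scale for cecum over duodenum and between -4.26 and -4.20 for colon over duodenum, and PCK1 between 2.17 and 2.42 and between 3.97 and 4.27. FABP2 ranged from -18.46, with 0 reads put at 0.001 RPKM, to -9.77 for cecum over duodenum and from -12.27 to -9.85 for colon over duodenum. The cause of the changes below was not tested unless the alternative itself gives it.

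The call of XM_012176587.1 for colon over duodenum was lost with 1 added to every RPKM (-0.99) and with the median exon (-0.88). With the exons of 1 transcript only, the ratio of ILK for colon over duodenum was -0.13. That of FABP2 for cecum over colon was -7.15, against 0 reads in the cecum put at 0.001 RPKM. Such exons were matched by exact boundaries, so their reads can also count for another transcript, as for FABP2. XM_012176587.1 could not be tested on such exons, which stay below 1 RPKM.

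A fold of 4 in place of 2 ended the calls of XM_012176587.1 for colon over duodenum (-1.07), FABP1 for cecum over colon (1.23) and PCK1 for cecum over colon (-1.80). It left 0 members, 0 pathway genes and 0 transcripts of the study's lists called in either direction in cecum against colon. In cecum against duodenum it left 3 pathway genes and 2 listed transcripts with the cecum higher. In colon against duodenum it left 4 pathway genes with the colon higher and 5 with the duodenum higher, and 1 and 6 listed transcripts in these directions.

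edgeR's exact test, with a biological coefficient of variation assumed to be 0.4 for lack of replicates, ended the calls of FABP1 (-2.99) and PCK1 (2.27) for cecum over duodenum. It also ended those of XM_012176587.1 for colon over duodenum (-1.07), FABP1 for cecum over colon (1.23) and PCK1 for cecum over colon (-1.80). It called 0 members, 0 pathway genes and 0 listed transcripts with the cecum higher than the duodenum, and 1 member, 3 pathway genes and 4 listed transcripts with the duodenum higher. In colon against duodenum it called 1 pathway gene and 1 listed transcript with the colon higher, and 4 of each with the duodenum higher. In cecum against colon it called 0 members, 0 pathway genes and 0 listed transcripts in either direction.

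With at least 10 RPKM in a region, 5 pathway genes were called with the cecum higher than the duodenum, 4 with the colon higher than the duodenum and 1 with the cecum higher than the colon. The last count was also 1 with 1 added, with the median exon and with median-ratio rescaling. Of the study's lists in cecum against colon, 1 transcript was called with the colon higher with 1 added, with loci in place of transcripts and with the exons of 1 transcript only, and the last gave 2 with the cecum higher. No filter, the highest exon and scaling by summed exon reads, the last chosen after seeing the data, moved no count by over 1.5 times.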
